A study of Xenopus laevis with 16 samples.

Results

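A set of 66 gene models was defined that was higher with GATA4 from the first sampled hour to the last. With Nodal5 the set lay within a narrow window around control in the first 3 of the 4 sampled hours. The members were chosen by their measured values. A member had to lie at least 1 above control with both GATA4 conditions at all 4 hours (2.5, 5 and 7.5 h, called early here, and 24 h), and between -0.5 and 0.5 of control with Nodal5 at 2.5, 5 and 7.5 h. These differences are on the log2 scale of counts scaled by library size (counts per 1 M reads, CPM) with a pseudocount of 1, each against the control library of the same hour. Near 0 CPM the pseudocount compresses this scale, so the Nodal5 window can hold changes of several fold. At 5 h 1 member had 0.0393 CPM in control and 0.377 CPM in Nodal5 (1 and 9 counts). Another had 0.589 CPM in control and 0.167 CPM in Nodal5. The 66 members were found among 30841 models with a total of at least 50 counts, out of 54142 models in the table. Of all these models, 321 (1.04%) were at least 1 above control in both GATA4 conditions at the 3 early hours, 99 of those also had Nodal5 inside the window, and 66 of the 99 were still at least 1 above control at 24 h. The early and 24 h differences from control with GATA4, and the early differences with Nodal5, were therefore fixed by the selection and are given as a description without a test.

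The measurements were made by poly(A)+ RNA-seq of Xenopus laevis animal cap explants, the pluripotent ectoderm cut from blastula-stage embryos. The conditions were GATA4-GR alone (G4), GATA4-GR together with Dkk-1 (G4D), Nodal5 (labelled Xnr) and uninjected control explants (labelled AC), each sampled at the 4 hours. The embryos had been injected with the mRNA concerned in every condition but control, and each library pooled many explants, so that what is measured is an average over cells that may differ in fate. Whether control and Nodal5 explants also received dexamethasone, the ligand that activates GATA4-GR, is not given in the sources used here. There was 1 library per condition and hour, 16 in all, so no difference at a single hour has a replicate check, and 1 control library stands behind all 3 differences of its hour. In bulk explants, more cells that express a gene and more RNA per cell cannot be told apart.

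GATA4 is a zinc finger transcription factor needed for heart development, and it can direct animal cap cells, which otherwise form epidermis, towards heart and endoderm. GATA4-GR is a fusion to the ligand-binding part of the glucocorticoid receptor and is held inactive in the cytoplasm until dexamethasone (DEX) is added. The sampled hours thus count from DEX addition and explant excision. Nodal5 was injected as mRNA without such a switch, so for Nodal5 the hours count from excision only. Dkk-1 is a secreted antagonist of canonical Wnt signalling that binds the Wnt co-receptor LRP6. Nodal5 is a ligand of the TGF-β family that acts through Smad2 and Smad3 and induces mesoderm and endoderm. Genes higher with GATA4 at the earliest hour include candidates for direct targets, but RNA-seq alone does not separate direct from indirect targets.

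Total counts per library ranged from 11339829 in G4 at 2.5 h to 23310320 in control at 5 h. The TMM scaling factors were at least 1.02 in every early library, and at 24 h they were 0.866 in G4, 0.914 in G4D, 0.815 in Nodal5 and 0.710 in control. The labels mark the 5 h libraries of all 4 conditions as sequenced again, so this coincides with an hour and not with a condition. None of the model identifiers could be matched to a gene name (0 of 54142), so the members have no known function here, the injected genes could not be checked by name, and markers of heart, endoderm or epidermis could not be looked up. At most 4 members are given by identifier, and the others by their rank from 1 to 66 in mean early difference from control.

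Most members had low levels without GATA4. The median member had 0.328, 0.314, 0.381 and 0.534 CPM in control at the 4 hours in turn, and 35 of the 66 (53%) stayed under 1 CPM in control at all 4 hours, against 19.9% of all models. All 66 members had reads in every G4 and G4D library. The selection fixed this, since a rise of 1 on the log2(CPM + 1) scale needs at least 1 CPM. In a Nodal5 library 51 to 60 of them had reads, and in a control library 56 to 59. Summed over the 66 members, the level was 590 CPM in G4, 452 CPM in G4D, 52.1 CPM in Nodal5 and 52.7 CPM in control at 2.5 h. At 24 h this sum was 3284 CPM in G4, 3999 CPM in G4D, 410 CPM in Nodal5 and 204 CPM in control. The gap between the GATA4 and control sums was largely set by the selection, as was the nearness of Nodal5 to control at 2.5 h. Single members weigh heavily in these sums. At 24 h the member ranked 21 alone had 87.7 CPM in control, and the member ranked 26 had 607 CPM in G4. CPM values are not scaled by transcript length, so they were compared between libraries and not between genes. The total count of a member over the 16 libraries ranged from 491 to 42391 (median 2895). Because RSEM divides reads that match several models, every member had at least 1 count that was not whole, in a median of 25% of its 16 counts, against 43.8% for all models. Members that share reads with a near-identical copy, such as the other homeolog in this allotetraploid frog, have uncertain values.

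**Figure D1:**
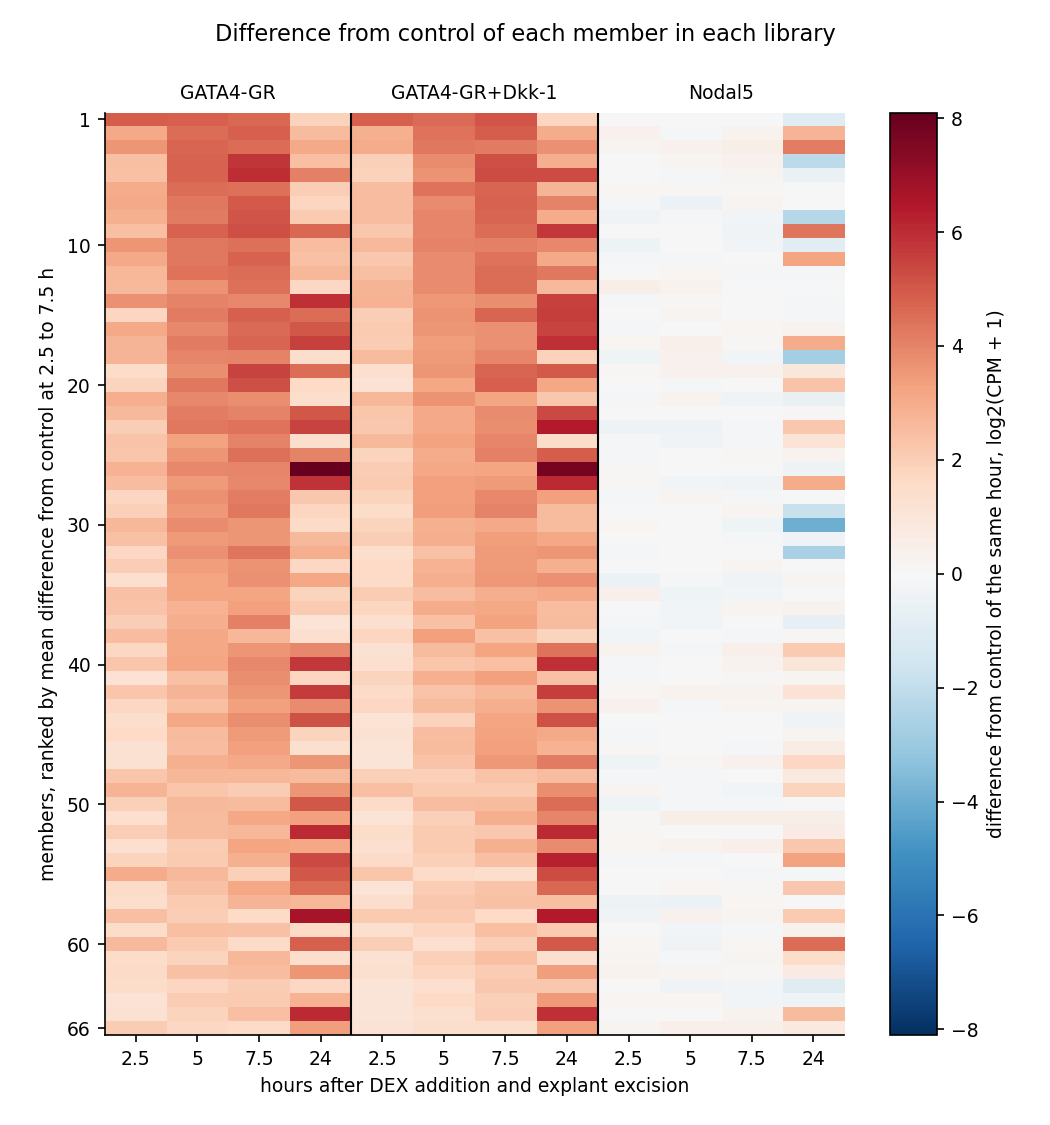
Difference from the control library of the same hour, log2(CPM + 1), of the 66 members (rows, ranked by mean early difference) in each G4, G4D and Nodal5 library (columns, hours 2.5 to 24). The G4 and G4D columns lie at or above 1.02 and the early Nodal5 columns within 0.5 of control, as the selection required, while Nodal5 at 24 h runs from -3.94 to 4.55.

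Induction was already present at 2.5 h and grew through the early hours. In G4 the median difference from control was 2.25 at 2.5 h (lowest 1.14, highest 4.89), 3.23 at 5 h (1.71 to 4.83), 3.76 at 7.5 h (1.57 to 5.98) and 3.003 at 24 h (1.09 to 8.09). In G4D the medians were 1.81 (1.02 to 4.85), 2.92 (1.28 to 4.59), 3.33 (1.40 to 5.31) and 3.65 (1.34 to 7.73) at the same hours. The medians over all models were within 0.03 of 0 at every hour in both conditions. The mean of the G4 and G4D differences was larger at 5 h than at 2.5 h in 60 members and larger at 7.5 h than at 5 h in 58, and both steps were upward in 56 members (84.8%). Over all models both steps were upward in 18.9%. There were 33 models that met the same early criteria but were not at least 1 above control in both GATA4 conditions at 24 h. Among them both steps were upward in 18 (54.5%). These counts use the hours the selection used and were not tested.

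The difference from control was largest at 24 h in 32 members (48.5%, against 38.4% of all models). It was largest at 7.5 h in 29 (43.9%, against 19.9%), at 5 h in 4 (6.06%, against 20.8%) and at 2.5 h in 1 (1.52%, against 20.9%). The mean GATA4 level itself, without reference to control, was higher at 5 h than at 2.5 h by a median of 1.13 and higher at 7.5 h than at 5 h by a median of 0.56, while between 7.5 and 24 h the median change was 0.07. That small median covers wide changes in both directions. The level at 24 h was at least 1 above that at 7.5 h in 24 members (36.4%, against 18.8% of all models). It was at least 1 below that at 7.5 h in 23 (34.8%, against 15.8%), and 19 members stayed within 1. The range over the members ran from -2.96 to 5.47. Of the 2400 other models at least 1 above control with both GATA4 conditions at 24 h, 57.8% rose and 6.92% fell by at least 1. Of the 33 models that met only the early criteria, 12.1% rose and 45.5% fell by at least 1. The selection used all libraries behind these changes, which were not tested. A member could thus stay above control at 24 h, as the selection required, while its own level fell by as much as 2.96 on the log2 scale. Within the set, the mean early and the mean 24 h difference had a Pearson's r of -0.10 and a Spearman's rho of -0.09. The 66 members share all libraries and are not independent replicates. The selection cut both differences from below, so these values cannot show whether early and late induction are related.

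The 2 members with the largest mean early difference differed in their time course. Xelaev16005532m.g, ranked 1, had 30.6, 30.8, 26.6 and 12.8 CPM in G4 at the 4 hours in turn. In G4D it had 29.8, 25.9, 36.2 and 11.96 CPM, in Nodal5 0.0578, 0.0837, 0.0866 and 0.962 CPM, and in control 0.0655, 0.118, 0.102 and 2.80 CPM. Its GATA4 level was thus near its highest at the first hour, and the control libraries of the 3 early hours held only 1, 3 and 2 counts. Its mean early difference was 4.82, the largest of the 66, and its mean difference at 24 h was 1.82, with a control count of 34.

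Xelaev16049168m.g, ranked 2, had 9.02, 36.7, 60.4 and 6.50 CPM in G4 and 7.94, 33.3, 63.5 and 9.08 CPM in G4D. In Nodal5 it had 0.520, 0.544, 1.56 and 7.26 CPM, and in control 0.197, 0.629, 1.12 and 0.247 CPM. The GATA4 level climbed to 7.5 h and had fallen by 2.86 on the log2 scale at 24 h, where all 3 injected conditions stood at a like level above control. Its mean early difference was 4.11.

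The member whose GATA4 level dropped most was Xelaev16015327m.g, ranked 6. It had 9.59, 30.4, 36.0 and 2.94 CPM in G4 and 6.61, 27.0, 43.5 and 5.88 CPM in G4D. In Nodal5 it had 0.463, 0.433 and 0.820 CPM at the early hours, and in control 0.328, 0.354 and 0.676 CPM. At 24 h both its Nodal5 and its control library held 0 counts, which allows up to 3 counts or 0.262 CPM in Nodal5 and 0.247 CPM in control. Its GATA4 level fell by 2.96 between 7.5 and 24 h but remained above both of these limits. In all, 10 members had 0 counts in control at 24 h, and their differences there depend on the pseudocount.

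**Figure D2:**
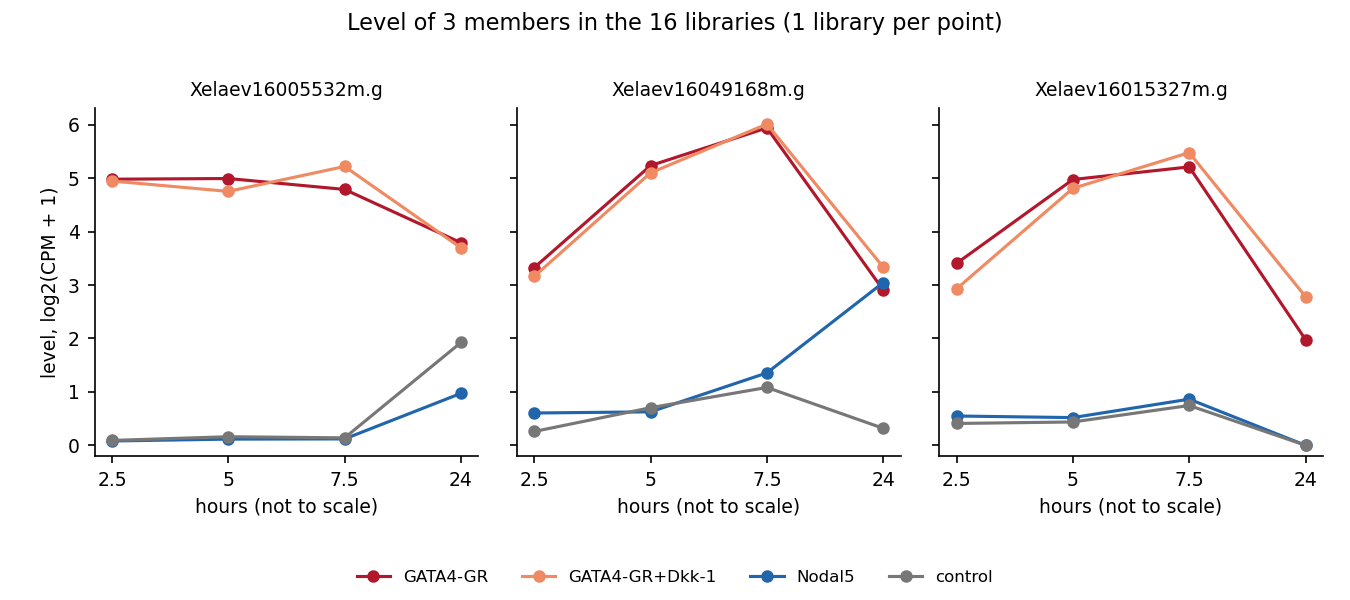
Level, log2(CPM + 1), of the 3 members named above at each hour, 1 library per point, with G4 in red, G4D in orange, Nodal5 in blue and control in grey. The G4 and G4D lines run together above both others to 7.5 h and fall by 24 h, and in the middle panel Nodal5 reaches 7.26 CPM, against 6.50 CPM in G4.

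The opposite course was most marked in the member ranked 26, whose difference of 7.91 was the largest of the set at 24 h. It had 5.93, 13.9, 14.6 and 607 CPM in G4, 3.23, 7.71, 8.34 and 472 CPM in G4D, 0.0578, 0, 0 and 0.700 CPM in Nodal5, and 0, 0, 0 and 1.23 CPM in control. Its level in the GATA4 conditions was 5.47 higher at 24 h than at 7.5 h, while Nodal5 and control were at or below 1.23 CPM at every hour. This member was described after its values were seen.

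Members that climbed and members that dropped after 7.5 h overlapped in how strongly they had been induced early. The median mean early difference was 2.44 in the 24 members with a higher level at 24 h, 2.82 in the 23 with a lower one and 3.36 in the 19 between. In the first 33 ranks 8 members climbed and 12 dropped, and in the last 33 ranks 16 climbed and 11 dropped. The members that climbed ran from rank 14 to 66 and those that dropped from rank 1 to 61, so none climbed above rank 14. The grouping rests on 2 libraries per hour with no replicates and was not tested.

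**Figure D3:**
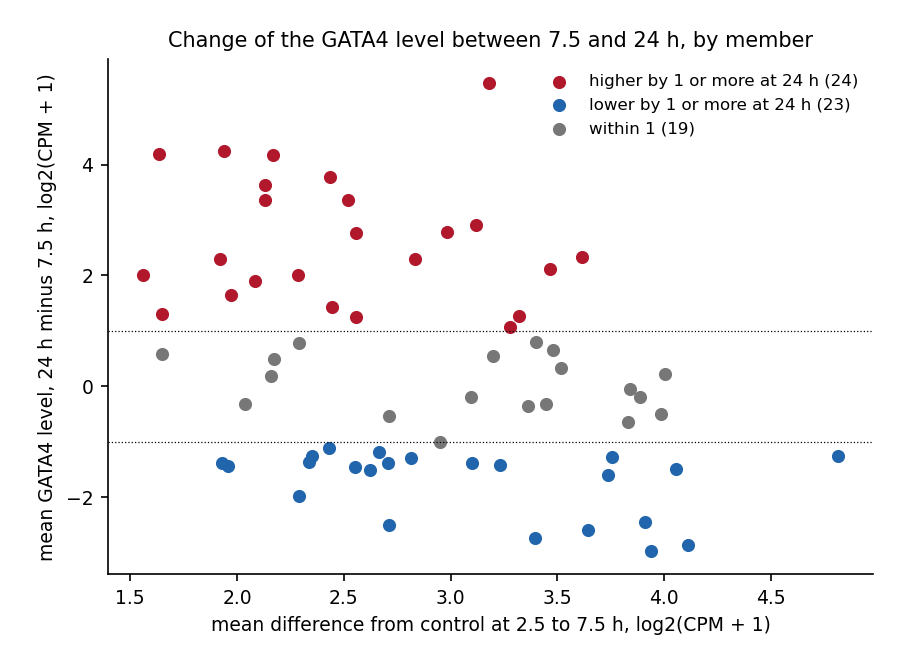
Change of the mean G4 and G4D level between 7.5 and 24 h, log2(CPM + 1), against the mean early difference from control for the 66 members, 1 point per member. Red marks the 24 members higher by at least 1 at 24 h, blue the 23 lower by at least 1 and grey the 19 within 1, and the red and blue points overlap along the horizontal axis.

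The control explants changed between 7.5 and 24 h too, which moves a difference from control. The control level was higher by at least 1 at 24 h in 14 of the 66 members (21.2%, near the 20% of all models). It was lower by at least 1 in 4 (6.06%, against 17.2% of all models). A fall of 1 on this scale needs at least 1 CPM at 7.5 h. There the members' control level had a median of 0.381 CPM and an upper quartile of 1.05 CPM. The median over all models was 4.63 CPM, so the low share of falls in the members was largely set by their low control levels. Among the 33 models that met the early criteria but not the one at 24 h, it was higher by at least 1 in 18 (54.5%), against 20% of all models. In those 33 the median control level was 5.84 CPM at 24 h, against 0.457 CPM at 7.5 h, while the median GATA4 level was 5.18 CPM in G4 and 8.79 CPM in G4D at 24 h. The same 33 were also less strongly induced early, with a median mean early difference of 1.93, against 2.76 in the 66 members. The selection used the control library of 24 h, and the part of its change in the length of the list was not tested.

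Addition of Dkk-1 to GATA4-GR was compared next, since Dkk-1 enhances cardiogenesis in this setting. The selection asked the same of both conditions and did not use the difference between them, although it used their libraries. At the early hours most members were slightly lower in G4D than in G4, and at 24 h most were higher. The median G4D minus G4 difference was -0.34, -0.45 and -0.33 at the 3 early hours in turn and 0.51 at 24 h, where the medians over all models were 0.03, 0, -0.03 and -0.01. G4D lay below G4 in 58, 55 and 54 of the 66 members at the 3 early hours (87.9%, 83.3% and 81.8%). Over all models these shares were 42.7%, 50% and 54.2%. At 24 h G4D lay above G4 in 52 members (78.8%, against 47.5% of all models). In the 33 models that met only the early criteria, G4D lay below G4 in 75.8%, 78.8% and 66.7% at the early hours. In 33 members (50%) G4D lay below G4 at all 3 early hours and above it at 24 h, against 8.99% of all models. Among the 33 models that met the early criteria but not the one at 24 h, 13 showed this (39.4%). G4D was at least 1 above G4 at 24 h in 14 members (21.2%, against 1.07% of all models) and at least 1 below it in 0 (against 1.19%). The 33 models that met only the early criteria had G4D at least 1 above G4 at 24 h in 8 (24.2%) and at least 1 below it in 2. G4D was above G4 at all in 29 of them (87.9%, against 78.8% of the members). These models could miss the 24 h criterion in 1 condition alone, with differences up to 1.45 in G4 and 3.06 in G4D. A miss in G4 alone favours G4D above G4, so these shares are partly set by the selection.

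**Figure D4:**
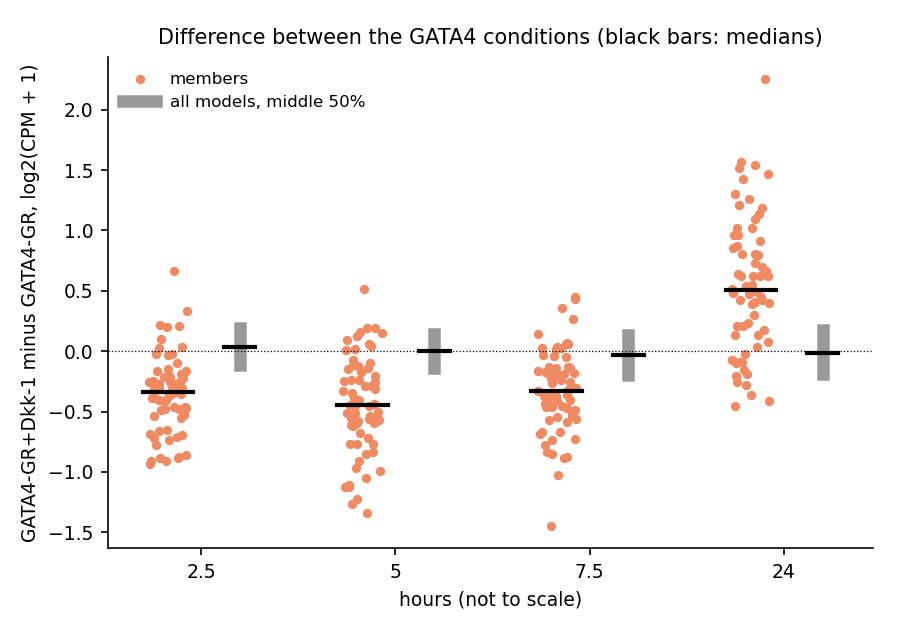
G4D minus G4 difference of log2(CPM + 1) at each hour, with 1 orange point per member (66) and a grey bar for the middle 50% of all 30841 models, black lines marking medians. The members' median lies below 0 at 2.5, 5 and 7.5 h (-0.34, -0.45 and -0.33) and above it at 24 h (0.51), while that of all models is 0.03, 0, -0.03 and -0.01.

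A difference between G4D and G4 that was shared by the 4 hours was sought with a quasi-likelihood fit (edgeR) of hour and condition over the 16 libraries, where the variation of an effect between hours serves as its error. No member passed the threshold (0 of 66, with 0% of the 30958 tested models called). At an unadjusted p under 0.05 there were 3 members lower and 0 higher in G4D, of 646 models in either direction, and DESeq2 called 0 members. The median log2 fold change over the members was -0.17. Since the early and the 24 h differences mostly had opposite signs, they partly cancel in this average. When only the G4 and G4D libraries were fitted, 1 member, ranked 26, was called lower in G4D, of 92 models called in either direction.

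Whether the G4D minus G4 difference at 24 h departed from that at the earlier hours was tested by an interaction term, added after the data had been seen. The interaction was positive in 61 of the 66 members (50.7% of all models), with a median log2 fold change of 0.99. The 66 members share 1 G4D and 1 G4 library at 24 h, and the selection used every library of both conditions. The members are therefore not replicates of this difference, and nothing about the set is read from an excess over all models. After Benjamini-Hochberg adjustment over all models, 1 member passed (1.52%), against a background of 0.0937% of models called higher and 0.149% called lower. The member ranked 37, Xelaev16040304m.g, was picked after its values were seen. It had 1.64, 5.03, 9.70 and 9.26 CPM in G4D at the 4 hours in turn. In G4 it had 3.26, 8.02, 17.3 and 2.71 CPM. In Nodal5 it stayed at or below 0.0874 CPM and in control at or below 0.740 CPM. G4D was thus lower than G4 in each early library and higher at 24 h, where G4 had dropped below its 2.5 h level. Its interaction was 2.58 on the log2 scale, and it was no longer called without the 5 h or the 7.5 h libraries. At 24 h the term sets 1 G4D library (151 counts) against 1 G4 library (35 counts), both of which the selection used. It therefore describes these libraries and not a replicated difference between the conditions. In simulated counts with a coefficient of variation of 0.3 a test of this interaction recovered 0% of changes of 1 and 3% of changes of 2 on the log2 scale. The biological coefficient of variation of the fitted model was 0.134, so recovery at that spread was not measured.

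The late G4D minus G4 difference was most often positive where the GATA4 level had not climbed. G4D was above G4 at 24 h in 21 of the 23 members that had dropped since 7.5 h (median difference 0.70), in 17 of the 19 that stayed within 1 (0.62) and in 14 of the 24 that had climbed (0.13). These groups were made from the same libraries as the difference and were not tested. Across the members the differences at 7.5 and 24 h showed little relation, with a Pearson's r of 0.03 and a Spearman's rho of 0.02 (n = 66 members of the same 4 libraries).

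Nodal5 at 24 h was the one treated library that the selection left free. There the name GATA4-only held for part of the set. Nodal5 was at least 1 above control in 20 of the 66 members (30.3%), against 10.8% of all models. It was at least 2 above control in 15 (22.7%, against 4.69%). It was at least 1 below control in 6 members (9.09%, against 13.6% of all models) and within 0.5 of control in 27 (40.9%, against 55.3%). The median difference was 0.23 (-3.94 to 4.55). Because the selection required GATA4 to exceed this same control library, it favours a low control value and with it a positive Nodal5 difference. The 2400 other models at least 1 above control with both GATA4 conditions at 24 h carry the same bias from the control library. Among them Nodal5 was at least 1 above control at 24 h in 45.5%. Unlike the members, they were not held near control with Nodal5 at the early hours, and their difference there reached 8.72 at 5 h. The comparison of their share with that of the members is therefore partly set by the selection. The share in the members thus lay between that in the other late GATA4-induced models and that in all models. In the 33 models that met only the early criteria, Nodal5 was at least 1 above control at 24 h in 3 (9.09%). Missing the 24 h criterion favours a high control value, so that share too is partly set by the selection. The differences between these shares were not tested. Across the 66 members the 24 h difference with Nodal5 and that with GATA4 had a Pearson's r of 0.39 and a Spearman's rho of 0.38, and both contain the same control library.

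The Nodal5 level in the 1 library of 24 h was then set against the Nodal5 level at the earlier hours. This was done with edgeR's quasi-likelihood test on 1 mean per condition for the early hours and 1 for 24 h. The contrast holds no control library, so an effect of Nodal5 cannot be told apart from a change with explant age. In this test 25 of the 66 members (37.9%) were higher at 24 h and 0 were lower, whereas 28.5% of all models were called higher and 29.4% lower. The median log2 fold change was 1.77 in the members and 0 over all models. Early Nodal5 levels of the members were low by selection, with medians of 0.289, 0.314 and 0.563 CPM at 2.5, 5 and 7.5 h, so the selection itself favours calls in the higher direction and nothing about the set is read from that excess. The 24 h library was assumed to vary like the early ones. Of the 25 called members, 17 were also at least 1 above control at 24 h and 8 lay within 1 of it. Xelaev16049168m.g was among the called members, with a log2 fold change of 3.15. So was Xelaev16005532m.g, at 3.54, although its Nodal5 level of 0.962 CPM at 24 h was below the 2.80 CPM of control. Its Nodal5 libraries held only 1, 2 and 1 counts at the early hours and 11 at 24 h, so the size of this change is imprecise. Without the 5 h libraries 16 members were called, all higher, of 12299 models called in either direction. Without the 2.5 h libraries 36 were called, 30 higher and 6 lower, of 17990 models, against 17931 models with all libraries.

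The member with the smallest adjusted p in that test, ranked 60, also had the largest Nodal5 difference. It had 1.099, 0.628, 0.779 and 84.2 CPM in Nodal5 at the 4 hours in turn, and 0.852, 0.982, 0.698 and 2.63 CPM in control. In G4 it had 10.7, 7.61, 4.04 and 103 CPM and in G4D 6.41, 4.06, 5.46 and 113 CPM. At 24 h the 3 injected conditions were thus all far above control, while Nodal5 had stayed near control at the earlier hours, as the selection required. Its log2 fold change in Nodal5 was 6.65, which rests on 1 library at 24 h. This member was picked after its values were seen.

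Where Nodal5 lay above control at 24 h, GATA4 was ahead in part of the members. Among the 20 members with a late Nodal5 difference of at least 1, both G4 and G4D were at least 1 above Nodal5 at 24 h in 11, and both were below it in 3. Among the other 46 members both were at least 1 above Nodal5 in 45, which the selection on GATA4 at 24 h largely fixes. Over all 66 members the mean GATA4 level exceeded the Nodal5 level by a median of 2.88 (-0.75 to 8.30). In the 20 members, the median level at 24 h was 27.5 CPM in G4, 42.7 CPM in G4D, 7.30 CPM in Nodal5 and 0.493 CPM in control. Of these 20, the GATA4 level had climbed since 7.5 h in 10, dropped in 8 and stayed within 1 in 2. In the 40 members with Nodal5 within 1 of control, the medians at 24 h were 12.6 CPM in G4, 15.6 CPM in G4D, 0.525 CPM in Nodal5 and 0.452 CPM in control.

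**Figure D5:**
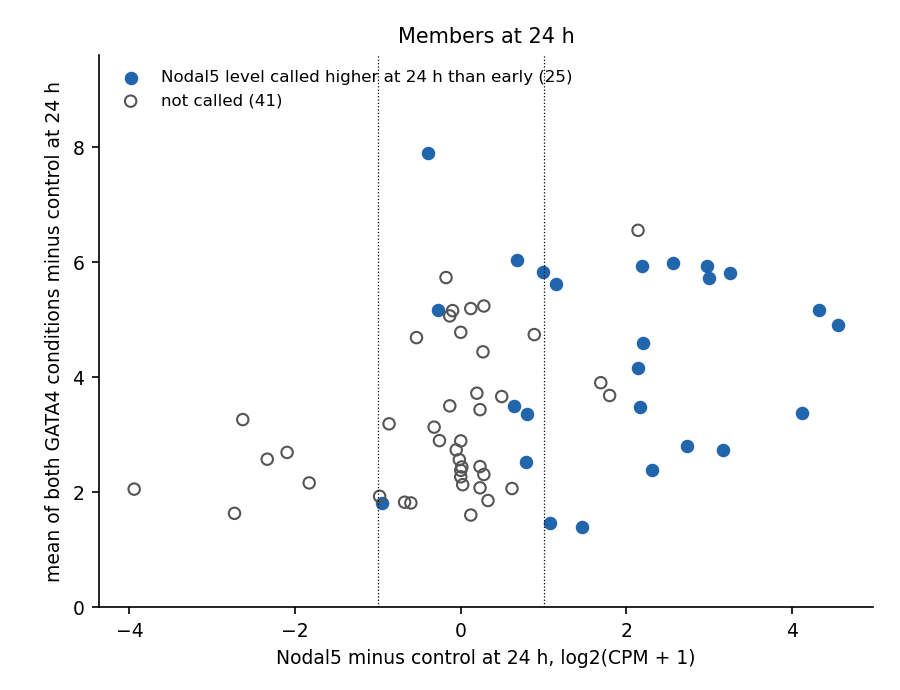
Mean difference of G4 and G4D from control against that of Nodal5 at 24 h, log2(CPM + 1), 1 point per member, with dotted lines at -1 and 1. Filled blue points are the 25 members whose Nodal5 level was called higher at 24 h than at the early hours, and of the 20 points right of the right-hand line 17 are filled.

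In the 6 members with Nodal5 at least 1 below control at 24 h, the control level had risen since 7.5 h. The selection held Nodal5 near control at 7.5 h, where both were low, so this course was largely set by it. In G4 and G4D the level of these 6 members was 24.7 to 138 CPM at 24 h. In Nodal5 explants the level was 0.175 to 1.29 CPM at 24 h and had changed by -0.45 to 0.58 since 7.5 h. In control explants it was 4.93 to 22.4 CPM at 24 h but at most 2.13 CPM at 7.5 h, and was thus higher by 1.78 to 4.06 on the log2 scale. The largest such difference was seen in the member ranked 30, with 67.3 CPM in G4, 138 CPM in G4D, 0.525 CPM in Nodal5 and 22.4 CPM in control at 24 h. Among the 33 models that met only the early criteria, Nodal5 was at least 1 below control in 17 (51.5%). Each of these values is from 1 library.

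Membership depended on where the lines were drawn and on the pseudocount. With a pseudocount of 0.5, 75 models met the criteria, of which 47 were among the 66, and with one of 2, 58 did, of which 41 were. The 3 members with the smallest rise had 1.02, 1.02 and 1.05 at their lowest hour and condition, and the 3 models that fell just short had 0.97 each. The 3 members with the widest Nodal5 value reached 0.49, 0.48 and 0.46, and the 3 models just outside had 0.50, 0.50 and 0.51. Leaving out the 2.5 h libraries from the criteria gave 171 models in place of 66, so the earliest hour was the one that limited the set most among the 4.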

How the data were processed

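Poly(A)+ RNA-seq of animal cap explants was used, with 1 library per condition and hour and groups taken from the labels. The authors used Bowtie to map read pairs against version 7.2 of the JGI gene models, and deposited the expected counts that RSEM estimated per model, not normalized. Authors' calls were not used. For the levels, edgeR 4.0.16 TMM CPM were taken as log2(CPM + 1), which understates the change of low genes. Members and gene lists were chosen with earlier results of these data known.

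For tests, expected counts were rounded to whole numbers, edgeR's filterByExpr (minimum count 10) kept 30958 models, and edgeR's quasi-likelihood test was run in R 4.3.3 with Benjamini-Hochberg adjustment over all of them and a threshold of 0.1, as in the study. Hours stand in for replicates, so p-values measure the variation of an effect between hours and not between explant batches. The test of G4D against G4 had 9 residual degrees of freedom, the test of Nodal5 at 24 h against earlier had 8, with its 24 h library assumed to vary like the early ones, and the interaction had 6. DESeq2 1.42.0 was an alternative. Counts were simulated at a coefficient of variation of 0.3 (fitted: 0.301 and 0.264), with 200 models changed by 1 or by 2 on the log2 scale. For G4D against G4, 23% and 99.5% were recovered, and 13.2% and 7.44% of the calls were false. For Nodal5 at 24 h against earlier, 0.5% and 55.5% were recovered, and 50% (1 false call) and 6.72% of the calls were false. The changed models had a mean of at least 50 counts per library and otherwise flat levels over the hours. Most members had fewer counts in the early Nodal5 libraries, so recovery at their levels was not measured. A limit of 3 counts was taken where a library held 0, and it covers counting error only. A count was taken as whole within 0.001.

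Identifiers printed were the 2 members with the largest mean early difference and the 2 whose GATA4 level dropped most, of which 1 is the same, and 1 member picked after its values were seen. Marker lists could not be run, because 0 of 54142 identifiers matched the RefSeq gene table (assembly Xenopus_laevis_v10.1).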

Additional observations from a re-analysis of the deposited data

Results flagged for a closer look

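For Xelaev16040304m.g, ranked 37, the difference between G4D and G4 was not the same at 24 h as at the earlier hours. The interaction, added after the data had been seen, was 2.58 on the log2 scale. G4D minus G4 was -0.69, -0.58 and -0.77 at the 3 early hours in turn and 1.47 at 24 h, each from 1 library per condition. The 24 h value rests on 151 counts in G4D, against 35 counts in G4. Since 1 library per condition stands behind the 24 h term, this is no replicated difference. The member was also no longer called when the 5 h or the 7.5 h libraries were left out. The cause was not tested.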

How the results depend on the processing

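The set of 66 members went to 36 with a rise of 1.5, to 32 with a Nodal5 window of 0.25 and to 125 with a window of 1, and leaving out each hour from the criteria gave 76 to 171. In 11 of 15 alternatives, 3 of the left-out hours among them, the count stayed within 1.5 times of 66, but members were exchanged, since the 75 models with a pseudocount of 0.5 held 47 of the 66 and the 58 with one of 2 held 41. For G4D against G4, 8 of 9 alternatives also gave 0 members, and fitting only the G4 and G4D libraries gave 1, of 92 models called. For Nodal5 at 24 h against earlier, leaving out each early hour gave 16 to 36 members (6 of the 36 lower), against 25, and DESeq2 gave 32, of which 29 were higher. The interaction called 1 member, 7 when models with any count were kept, and 0 to 11 when each early hour was left out. DESeq2, other size factors and a threshold of 0.05 each called the same member, ranked 37. It was no longer called when the 5 h or the 7.5 h libraries were left out. Only 3 of 7 alternatives thus gave the same result. The count of 20 members with Nodal5 at least 1 above control at 24 h ranged from 15 to 23 over 5 alternatives, and the 33 members with a sign change of G4D minus G4 were 33 under 3. The causes were not tested. The interaction and the alternatives for the sign change were chosen after seeing the data. For Xelaev16005532m.g the mean early difference of 4.82 was 5.67 with a pseudocount of 0.5 and 3.93 with one of 2. Low counts limit the precision of the control and Nodal5 values. G4D and G4 were compared within hours, since hour was a factor of that fit.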
